A study of Rattus norvegicus with 6 samples.

Results

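The genes described here are 10 genes of the oncofetal and let-7 group, chosen by name: Igf2bp1, Igf2bp2, Igf2bp3, Hmga1, Hmga2, Lin28a, Lin28b, Afp, Gpc3 and Plag1. A probe belonged to a gene if the RefSeq transcript named for it on the array mapped to that symbol. Of 24684 probes that were not controls, 7 belonged to the group, 1 for each of 7 genes and each printed as 1 spot. No probe was matched to Igf2bp2, Igf2bp3 or Lin28b, which are not analysed here. Collagenase had been used to isolate the islets, which came either from adult male rats or from pooled 10-day-old rats (P10), with 3 arrays per stage. Neither the strain, the adult age nor the sex of the P10 rats is given in the labels, no treatment is named for either stage, and each P10 array carries pooled animals. The comparison asks how transcripts of adult islets differ from those of islets that are still maturing.

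Oncofetal genes are active in the embryo and in many tumours and are low in most adult tissues. LIN28 proteins bind the precursors of the let-7 microRNAs and block their maturation, and mature let-7 represses mRNAs that carry matching sites, among them those of Hmga2, Lin28a, Lin28b and Igf2bp1. IGF2BP proteins bind mRNAs, Igf2 mRNA being the one they are named for, and affect their stability, transport and translation. Neither mature let-7 nor any protein was measured on these arrays.

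The let-7 sequences are shown because some mRNAs of this group are let-7 targets, which carry sites matching the seed. Sites in these mRNAs were not examined. Of the 693 mature rat miRNAs in the RefSeq table (build GRCr8), 9 carry the let-7 seed, bases 2 to 8, which stands in capitals in 4 of them here:
let-7a: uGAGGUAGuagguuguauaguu
let-7d: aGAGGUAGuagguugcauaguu
let-7i: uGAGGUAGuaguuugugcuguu
miR-98: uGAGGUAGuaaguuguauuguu
Counted from the 5′ end and read from let-7a to the other member, let-7d differs by U1A and U16C, and let-7i by G12U, A17G, U18C and A19U. All of these lie outside the seed.

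LIN28 proteins recognise a GGAG motif in the loop region of let-7 precursors, and these hairpins show where it lies. GGAG occurred between the 2 mature arms in 9 of 11 let-7 family hairpins of the table. The same search found it in 18 of 253 other hairpins with both arms listed, or 7.11%. The motif is in capitals in the hairpins of let-7a-1 (GRCr8 chr17:16320133-16320226, plus strand) and let-7i (GRCr8 chr7:60527877-60527961, minus strand):
let-7a-1 hairpin: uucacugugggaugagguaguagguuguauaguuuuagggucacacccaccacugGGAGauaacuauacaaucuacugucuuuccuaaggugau
let-7i hairpin: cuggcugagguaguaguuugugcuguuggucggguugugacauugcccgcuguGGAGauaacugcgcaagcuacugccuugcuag
It was not found in that window of the let-7c-2 and miR-98 hairpins, which says only that these letters are not there.

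Levels are given as processed signal in intensity units, or as log2 signal minus the 75th percentile of log2 signal of the same array, called the scaled level. Changes are adult minus P10 on that log2 scale with their standard error (SE). Between 17829 and 18731 probes per array were well above background, the Feature Extraction flag for a spot above its local background, and 0 spots were saturated. The 75th percentile itself stood at 10.93 to 11.36 on adult arrays and at 9.92 to 9.99 on P10 arrays, so an unchanged raw signal gives a lower scaled level in adults. Adult arrays 2 and 3, and P10 arrays 1 and 2, differed by about as much as repeated spots and were each counted as 1 sample, which leaves n = 2 per stage. Their variance was 1.14 and 0.98 times that predicted from repeated spots, against 14.7 and 17.7 for the other adult pairs and 1.25 and 1.49 for the other P10 pairs. Differences between P10 arrays 1 and 2 did recur at other probes of the same gene (Spearman rho 0.38 over 142 genes, a description across genes), so these arrays need not carry the same RNA. Adult array 1 was scanned with the P10 arrays and adult arrays 2 and 3 in a second scan, by the scan times in the file headers. Scan 1 is thus the one that holds both stages. With 2 replicates the number of arrays limits the precision.

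Of the 10 genes, Afp, Hmga1 and Gpc3, measured at both stages, fell in adult islets. Igf2bp1 was also called lower, which makes 4, but it passed the filter on dim probes only through P10 and had no well-measured adult signal. With probes well above background on all 6 arrays the count was 3 lower. Lin28a and Plag1 did not pass the test, Hmga2 was too dim to test, and 3 had no probe. None rose by limma's adjusted p, while at an unadjusted p under 0.05 the counts were 4 lower and 1 higher. Among the 11397 protein-coding genes tested on these arrays, 28.7% were lower and 23.7% higher in adults at a limma adjusted p under 0.05. With quantile normalization these shares were 27.2% and 30%, so the excess of lower genes turned. All 3 adult arrays lay below all 3 P10 arrays for 5 of the 6 tested genes and above them for 1, Lin28a. Such separation in these directions held for 42.8% and 35.3% of the protein-coding genes measured on every array. Separation of the arrays is therefore common here and is no mark of this group.

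**Figure D1:**
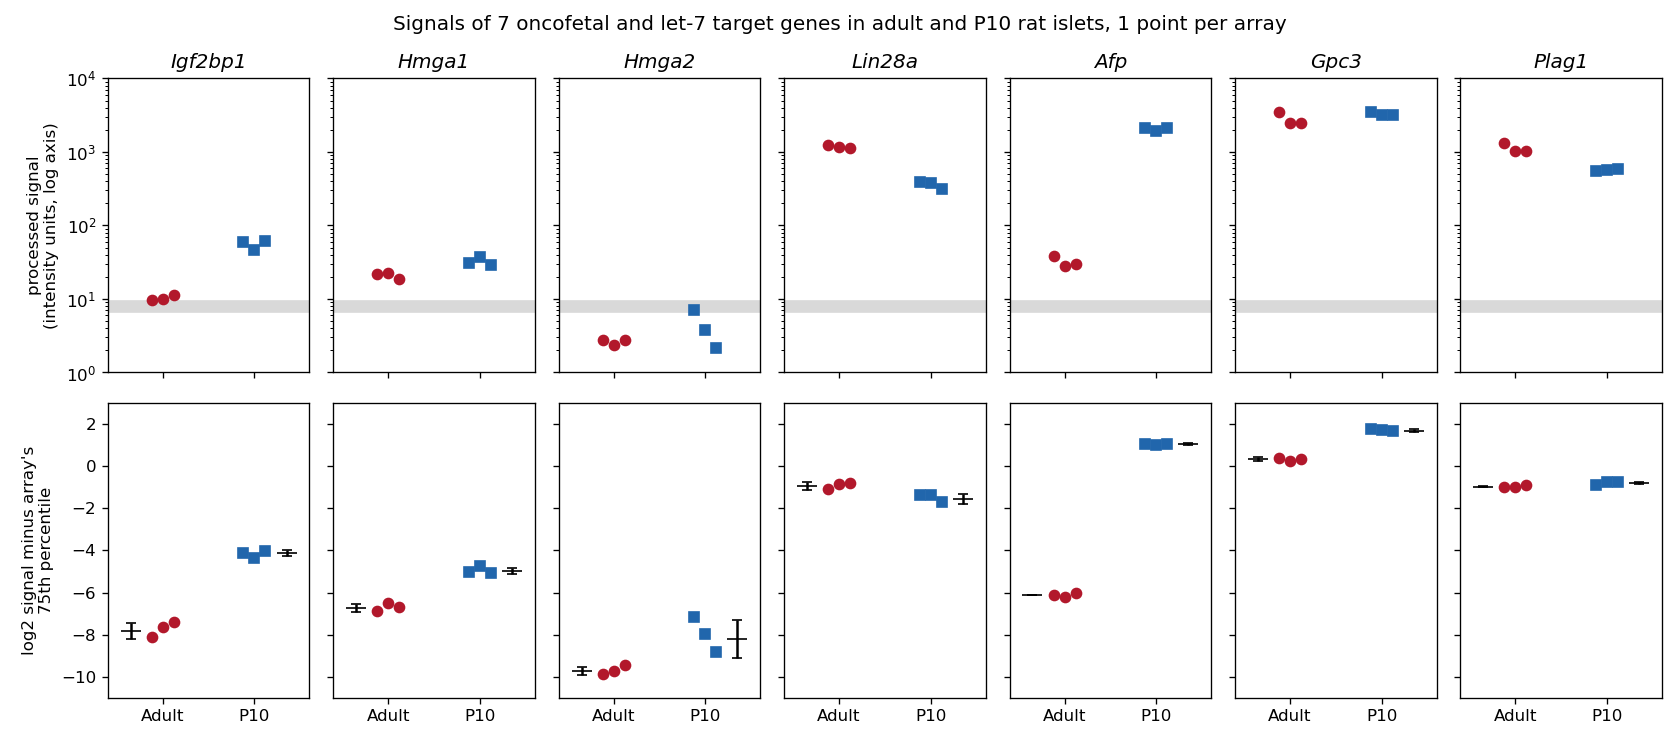
Processed signal in intensity units on a log axis (upper row, grey band: lowest signals called well above background on the 6 arrays) and log2 signal minus the 75th percentile of the array (lower row) for the 7 genes with a probe, with adult arrays as circles and P10 arrays as squares, and black marks for the mean and SD of the 2 counted replicates. Afp separates the stages most, with adult signals of 27.8 to 37.9 and P10 signals of 1940 to 2143, while Hmga2 lies below the grey band on most arrays and levels of different genes cannot be compared, since probes differ in affinity.

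Igf2bp1, an mRNA-binding protein that keeps target transcripts stable, was detected only in young islets. Its signal was 9.56, 10.1 and 11.3 on the adult arrays and 59.2, 46.8 and 61.0 on the P10 arrays. It was well above background on 0 of 3 adult arrays and on 3 of 3 P10 arrays, and the stages did not overlap. The scaled level was -7.82 ± 0.39 in adults and -4.14 ± 0.14 at P10 (SD, n = 2 each). Adult islets gave no well-measured signal. Under this scaling the fitted difference was -3.69 on the log2 scale, or 12.9-fold lower in adults. That size rests on adult signals not well above background and on the higher percentile subtracted from adult arrays. It is thus no measured fold. Unscaled, the mean signal of the 3 adult arrays was 0.186 of that of the 3 P10 arrays. The 12.9-fold value is no lower bound, since the adult signals already lay above the lowest well-measured signal of their arrays and were not raised. Quantile and median scaling gave smaller differences than -3.69. With no adult array well above background, the gene could be tested only because all 3 P10 arrays were, which favours a call as lower in adults. The P10 signals are themselves low, the lowest well-measured signals being 6.60 to 9.45 on the 6 arrays. Quantile normalization gave -2.89 and median scaling -3.39. Normexp background correction, with a constant added to every signal, gave -1.60 and did not pass (limma adjusted p = 0.0615). In scan 1 alone, with 1 adult array, it was -3.93.

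Lin28a, the RNA-binding protein that blocks let-7 maturation, had the opposite direction but did not pass the test. Its signal was 1242, 1166 and 1130 on the adult arrays and 391, 372 and 308 on the P10 arrays. The mean unscaled signal of the 3 adult arrays was thus 3.3 times that of the 3 P10 arrays, and every adult array was above every P10 array. After scaling, the levels were -0.94 ± 0.20 in adults and -1.54 ± 0.23 at P10 (SD, n = 2 each), which differ by 0.60 (SE 0.20, limma adjusted p = 0.07). The value passed in 7 of 16 other settings, among them quantile normalization at 0.62 (limma adjusted p = 0.0395) and the fit of all 6 arrays at 0.59 (limma adjusted p = 0.0096). In scan 1 alone it was 0.41 (limma adjusted p = 0.0909). The signal comes from 1 probe, and whether it is specific to Lin28a was not tested.

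Genes that process or degrade let-7 precursors mostly did not pass the test. Of 15 genes listed, 7 were tested, 2 were lower, 0 were higher and 5 did not pass (limma), with a median of -0.25 beside -0.13 over all tested protein-coding genes. At an unadjusted p under 0.05 the counts were 2 lower and 1 higher. By limma's adjusted p, 28.7% of all tested protein-coding genes were lower and 23.7% higher. Dgcr8, the partner of the nuclear nuclease Drosha, stood at -0.93 (SE 0.15, limma adjusted p = 0.0132), and Dis3l2, the exonuclease that degrades uridylated let-7 precursors, at -1.63 (SE 0.40, limma adjusted p = 0.0353). Quantile normalization put Dis3l2 at -0.78. Drosha stood at 0.66 (limma adjusted p = 0.0573) and passed as higher, at 1.01, with quantile normalization (limma adjusted p = 0.00509). Tut4, which adds the uridines when LIN28 is bound, stood at -0.25 (limma adjusted p = 0.496). No probe was matched to Dicer1 or Trim71.

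Hmga1 and Hmga2 encode small chromatin proteins that bind the minor groove of AT-rich DNA through AT-hooks. Hmga1 had signals of 22.2, 22.4 and 18.8 on the adult arrays and 31.2, 36.8 and 29.4 on the P10 arrays, all well above background and without overlap. Its scaled level was -6.75 ± 0.20 in adults and -4.98 ± 0.16 at P10 (SD, n = 2 each), a change of -1.76 (SE 0.18, limma adjusted p = 0.00449), or 3.4-fold lower in adults. The size depended on the scaling. Unscaled, the mean adult signal was 0.651 of that at P10. With quantile normalization the change was -1.0 (limma adjusted p = 0.00706), and with normexp it was -1.03 and did not pass (limma adjusted p = 0.123). In scan 1 alone it was -1.94.

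Hmga2, a direct let-7 target in mouse and human, was not well above background on any of the 6 arrays. Its signals were 2.79, 2.38 and 2.74 on adult arrays and 7.11, 3.83 and 2.17 on P10 arrays, each under the lowest well-measured signal of its array. No fold is given, and a difference between the stages was not detectable at these signals.

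Of 7 other HMG genes listed, 5 were tested, 1 was lower, 1 higher and 3 did not pass, which is no more than the shares of 28.7% and 23.7% over all genes. Hmgb2, a DNA-bending protein that is abundant in dividing cells, had scaled levels of 1.45, 1.33 and 1.14 in adults and 2.79, 3.13 and 3.20 at P10, a change of -1.74 (SE 0.17, limma adjusted p = 0.00417). Hmgn3, a nucleosome-binding protein studied in mouse beta cells, had levels of 4.15, 4.2 and 4.30 in adults and 1.94, 1.94 and 2.02 at P10, a change of 2.22 (SE 0.14, limma adjusted p = 0.00187). Hmgb2 and Hmga1 thus stood in the same direction and Hmgn3 in the other.

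Afp, the fetal serum carrier protein made by yolk sac and fetal liver, fell the most of the 5 tested genes that were measured at both stages. Its signal was 37.9, 27.8 and 30.2 on the adult arrays and 2143, 1940 and 2131 on the P10 arrays. All 6 arrays were well above background, so the adult level is low but measured. The scaled level was -6.11 ± 0.0032 in adults and 1.06 ± 0.035 at P10 (SD, n = 2 each), a change of -7.17 (SE 0.13, limma adjusted p = 0.0011), or 144-fold lower in adults. Averaging of adult arrays 2 and 3 makes that adult SD smaller than the spread of the arrays, which stood at -6.11, -6.20 and -6.01. It passed in all 16 other settings, with values of -7.20 to -5.18, and stood at -7.17 in scan 1 alone. In bulk tissue fewer cells of a type and less RNA per cell cannot be told apart, here and for the other genes.

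The relatives of Afp did not move as a block. In the RefSeq gene order Afp lies between Afm and Alb, which encode serum carriers of the same family. Afm had scaled levels of -1.63, -1.78 and -1.51 in adults and 2.11, 2.08 and 2.04 at P10, a change of -3.71 (SE 0.13, limma adjusted p = 0.00131). Alb, the albumin gene, had levels of 1.18, 1.15 and 1.28 in adults and 2.38, 2.19 and 2.16 at P10, a change of -1.03 (SE 0.13, limma adjusted p = 0.00768). Gc, the vitamin D binding protein gene of the same family, was higher in adults, with levels of 5.26, 5.73 and 5.86 against 3.38, 3.29 and 3.23 at P10 and a change of 2.25 (SE 0.23, limma adjusted p = 0.00461).

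Of 11 transcription factors listed as regulators of Afp, 8 were tested, 5 were lower, 1 higher and 2 did not pass, with a median of -1.02. Over all tested protein-coding genes 28.7% were lower and 23.7% higher, with a median of -0.13. Zbtb20, Zfhx3 and Zhx2 were not tested. The steepest falls were in Nr5a2, a nuclear receptor of liver, gut and exocrine pancreas, at -4.24 (SE 0.14), Cebpa, a factor of differentiated liver and fat cells, at -2.61 (SE 0.17), and Hnf4a, a nuclear receptor of liver, gut and pancreas, at -1.78 (SE 0.18), with limma adjusted p-values of 0.00131, 0.00201 and 0.00443. These 3 genes were dim in adults, with mean scaled levels of -6.13, -5.82 and -5.30. Quantile normalization gave smaller falls of -3.8, -2.1 and -1.3, in the same order. Hnf4a stood at -5.48, -4.34 and -5.91 on the adult arrays. Averaging of adult arrays 2 and 3 hides part of that spread from its SE. Foxa2, a pioneer factor of endodermal tissues, rose by 0.86 (SE 0.21, limma adjusted p = 0.0325).

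The promoter of Afp is shown because Afp had the largest measured change, and those of Gpc3 and Hmga1 because they fell as well. Each runs from 250 bases before to 50 bases after the gene start, read from RefSeq (GRCr8). Capitals mark matches on either strand to any of 3 motifs. These are the TATA box, searched as TATAAA, the GC box, searched as GGGCGG, and the CCAAT box, searched as CCAAT. The spans are GRCr8 chr14:17875596-17875895, minus strand, for Afp, GRCr8 chrX:137157549-137157848, minus strand, for Gpc3 and GRCr8 chr20:5613258-5613557, plus strand, for Hmga1:
Afp promoter: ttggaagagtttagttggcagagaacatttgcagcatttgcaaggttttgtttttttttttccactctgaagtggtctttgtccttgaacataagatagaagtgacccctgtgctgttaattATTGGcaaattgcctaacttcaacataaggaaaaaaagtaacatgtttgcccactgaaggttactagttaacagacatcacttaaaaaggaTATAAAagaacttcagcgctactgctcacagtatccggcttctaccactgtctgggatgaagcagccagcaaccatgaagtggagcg
Gpc3 promoter: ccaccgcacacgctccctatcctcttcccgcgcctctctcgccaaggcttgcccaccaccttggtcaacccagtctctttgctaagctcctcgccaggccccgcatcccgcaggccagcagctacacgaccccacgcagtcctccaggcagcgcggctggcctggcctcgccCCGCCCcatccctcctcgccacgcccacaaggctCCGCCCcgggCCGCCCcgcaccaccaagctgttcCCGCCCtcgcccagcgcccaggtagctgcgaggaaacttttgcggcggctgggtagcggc
Hmga1 promoter: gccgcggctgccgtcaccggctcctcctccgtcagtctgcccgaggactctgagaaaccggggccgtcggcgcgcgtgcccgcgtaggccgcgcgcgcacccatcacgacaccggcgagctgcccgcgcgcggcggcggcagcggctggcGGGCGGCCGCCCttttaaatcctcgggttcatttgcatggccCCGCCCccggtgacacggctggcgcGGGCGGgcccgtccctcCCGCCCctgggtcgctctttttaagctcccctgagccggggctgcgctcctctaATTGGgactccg
Afp has TATAAA at -37 and CCAAT, on the other strand, at -128, counted to the first base of the match from the gene start, and no GGGCGG. Over the 27457 promoters of the RefSeq set, TATAAA occurs in 14.3%. The GC box occurs in 34.9% and the CCAAT letters in 37.7%. Gpc3 has 4 matches to GGGCGG and Hmga1 has 5, with no TATAAA in either. The GC content is 40.3% for Afp, 71% for Gpc3 and 74% for Hmga1, beside a median of 52.3% over all promoters. These matches describe the letters only, and no binding was measured.

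Gpc3, a heparan sulfate proteoglycan of the cell surface that restrains growth in the embryo, fell after scaling. Its signal was 3503, 2481 and 2457 on the adult arrays and 3483, 3195 and 3178 on the P10 arrays, and these unscaled signals overlap, with a ratio of the adult to the P10 mean of 0.857. The scaled levels were 0.36 ± 0.078 in adults and 1.71 ± 0.059 at P10 (SD, n = 2 each) and did not overlap, a change of -1.35 (SE 0.14, limma adjusted p = 0.00438), or 2.54-fold lower in adults. Relative to other transcripts of the same array Gpc3 was therefore lower in adults, while its raw signals overlapped. Quantile normalization gave -1.39 and median scaling -1.05. Without P10 replicate 1 or without P10 replicate 2 the call was lost, with limma adjusted p-values of 0.071 and 0.0597 and changes of -1.30 and -1.39. In scan 1 alone it was -1.30.

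Of 10 paralogs of Plag1, Gpc3 and Afp listed, 6 were tested, 4 were lower, 2 higher and 0 did not pass, with a median of -1.35. The shares over all genes were 28.7% lower and 23.7% higher, with a median of -0.13. Glypicans of the other subfamily went both ways. Gpc2, known from the developing nervous system, had scaled levels of -4.78, -5.37 and -5.68 in adults and -1.68, -1.75 and -1.77 at P10, a change of -3.42 (SE 0.30, limma adjusted p = 0.00321). Gpc4, a cell-surface proteoglycan like Gpc3, had levels of 2.83, 2.42 and 2.29 in adults and 1.54, 1.57 and 1.46 at P10, a change of 1.09 (SE 0.21, limma adjusted p = 0.0203). The genes closest to Gpc3 over the 6 arrays were taken among 11171 protein-coding genes, by the root mean square (RMS) difference of centred scaled levels. They were Acp6, a lysophosphatidic acid phosphatase gene (RMS difference 0.0207), Aard (0.0407) and Bmp3, a ligand gene of the BMP family (0.0423). Their changes of -1.34, -1.36 and -1.27 resemble that of Gpc3 because they were picked on these values. Whether they are related to Gpc3 was not tested.

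**Figure D2:**
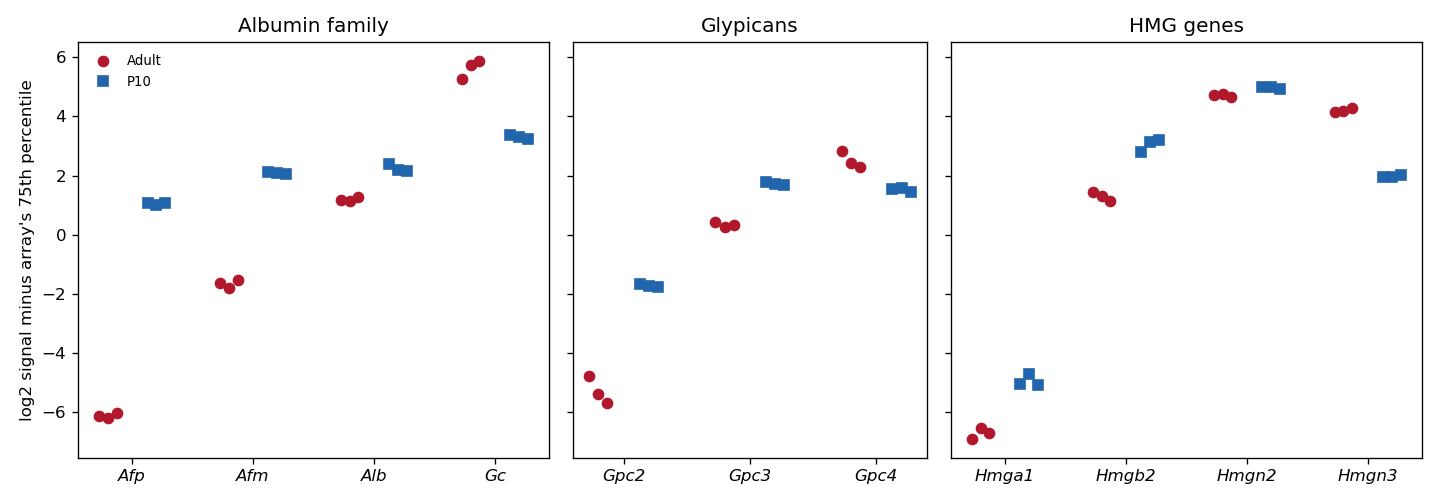
Log2 signal minus the 75th percentile of the array for Afp and Gpc3 with genes of their families, and for Hmga1 with other HMG genes, with adult arrays as circles left of P10 arrays as squares, 1 point per array. Afp, Afm, Alb, Gpc2, Gpc3, Hmga1 and Hmgb2 are lower in adults and Gc, Gpc4 and Hmgn3 higher; heights of different genes cannot be compared.

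Plag1, a zinc finger transcription factor that activates Igf2, showed no difference that passed the test. Its signal was 1329, 1037 and 1045 on the adult arrays and 550, 575 and 591 on the P10 arrays, a ratio of means of 1.99 before scaling. The scaled levels of -0.96 ± 0.029 in adults and -0.79 ± 0.041 at P10 (SD, n = 2 each) differ by -0.17 (SE 0.13, limma adjusted p = 0.318). Median scaling turned the direction, to 0.13 (limma adjusted p = 0.574). Its paralog Plagl1, an imprinted gene, had levels of -0.09, -0.02 and 0.07 in adults and 1.74, 1.68 and 1.55 at P10, a change of -1.66 (SE 0.14, limma adjusted p = 0.00323).

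**Figure D3:**
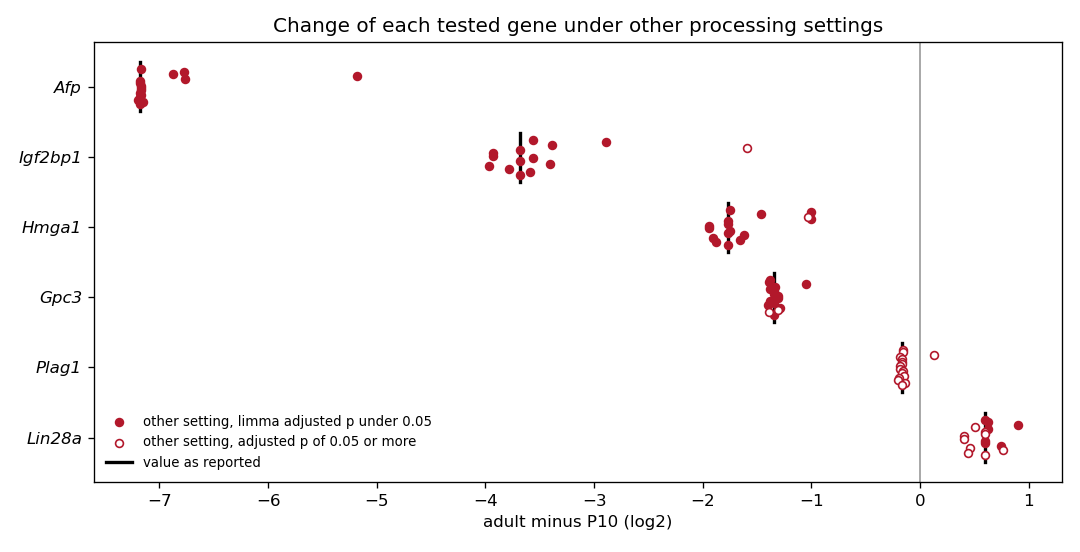
Adult minus P10 change (log2) of the 6 tested genes, with a black bar for the value as reported and a point for each other processing setting, filled where the limma adjusted p is under 0.05. Afp keeps a change of -5.18 or lower in each setting shown, Igf2bp1, Hmga1 and Gpc3 stay below 0, Plag1 lies around 0 and Lin28a stays above 0.

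Of 9 RNAs listed as bound by IGF2BPs, 8 were tested, 4 were lower, 2 higher and 2 did not pass, with a median of -1.14, beside shares of 28.7% lower and 23.7% higher over all genes. Igf2, the fetal growth factor gene, had scaled levels of 3.51, 3.18 and 3.28 in adults and 4.86, 4.92 and 4.83 at P10, a change of -1.49 (SE 0.16, limma adjusted p = 0.00519). H19, the non-coding RNA next to Igf2, stood at -8.82 (SE 0.35, limma adjusted p = 0.00131), Myc at -2.77 (SE 0.18, limma adjusted p = 0.00197) and Ctnnb1, which encodes beta-catenin, at -2.72 (SE 0.18, limma adjusted p = 0.00202). Cd44, a hyaluronan receptor gene, rose by 1.68 and Btrc, which encodes a ubiquitin ligase subunit, by 1.08.

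Proteins that join IGF2BPs on mRNA gave 3 lower, 0 higher and 4 not passing of 7 tested (limma), with a median of -0.34. At an unadjusted p under 0.05 the counts were also 3 and 0. These were Pabpc1, the poly(A) binding protein gene, at -1.06, Elavl1, which encodes a stabiliser of AU-rich mRNAs, at -0.66, and Syncrip, which encodes another RNA-binding protein, at -0.66. With quantile normalization the list gave 1 lower. Shares over all genes, for this list and the next, were 28.7% lower and 23.7% higher. Genes of the m6A mark, an adenosine methylation that IGF2BPs can read, gave 2 lower, 1 higher and 3 not passing of 6 tested, with a median of -0.34. Ythdf2, a reader that promotes decay, stood at -0.97 and Fto, a demethylase gene, at -0.63 (limma adjusted p = 0.0456), which did not pass with quantile normalization at -0.25 (limma adjusted p = 0.153), while Wtap, of the writer complex, rose by 0.86, a value without adult array 2, whose spot was an outlier.

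Of 24 other let-7 targets listed from the literature, 16 were tested, 9 were lower, 4 higher and 3 did not pass, with a median of -0.61. Over all genes 28.7% were lower and 23.7% higher, with a median of -0.13. With quantile normalization the list gave 8 lower and 4 higher, with a median of -0.29. Beside Myc, the steepest falls were in Ccnd2, a D cyclin gene, at -2.40 (SE 0.13, limma adjusted p = 0.00156) and in Arid3a, which encodes a DNA-binding factor, at -2.22 (SE 0.41, limma adjusted p = 0.0169). Arid3a was dim in adults, at scaled levels of -7.4, -6.24 and -6.44, and its change was -1.47 with quantile normalization. Myc had scaled levels of -1.43, -1.22 and -1.14 in adults and 1.22, 1.47 and 1.58 at P10. Mycn, its paralog, rose by 1.95 (SE 0.27, limma adjusted p = 0.00858), Tgfbr1, a TGF-beta receptor gene, by 1.20 and Ccnd1 by 1.01. Markers of dividing cells moved with the lower targets, 6 of 7 tested being lower and 0 higher (limma, also at an unadjusted p under 0.05), with a median of -2.07 and summed scaled signals of 10.8 to 11.8 in adults and 20.2 to 21.4 at P10. Their part in these changes was not tested.

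**Figure D4:**
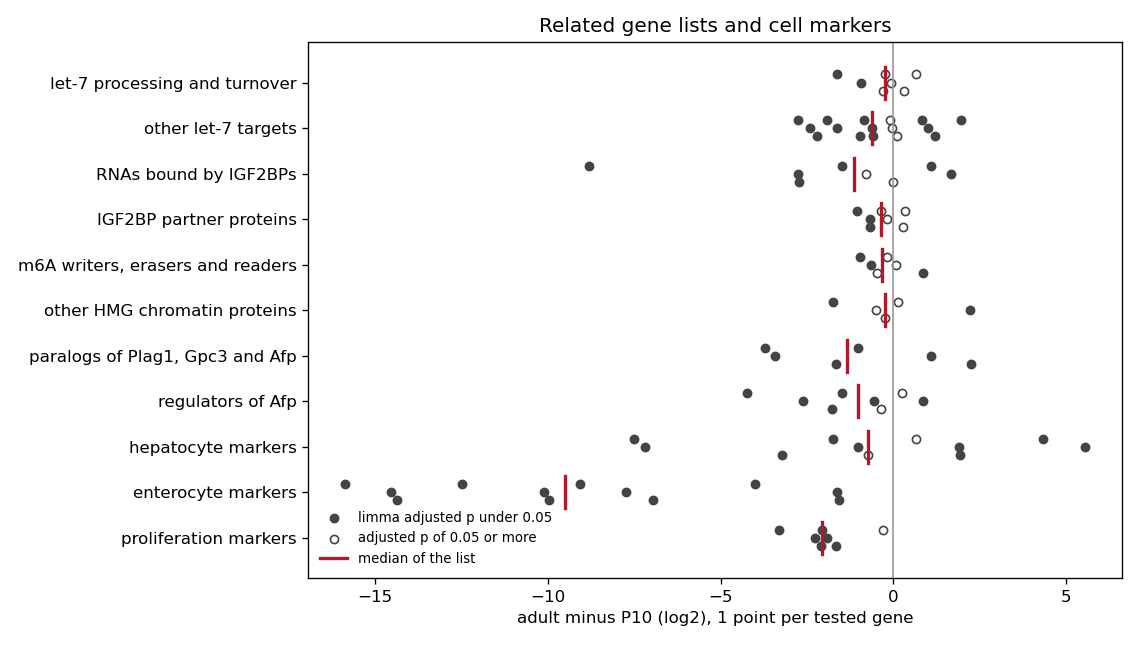
Adult minus P10 change (log2) of each tested gene in lists related to the group and in marker lists of hepatocytes, enterocytes and dividing cells, filled where the limma adjusted p is under 0.05, with the list median as a bar. Medians lie between -1.35 and -0.25 for the 8 lists related to the group, with genes on both sides of 0, while the 12 enterocyte markers are all below 0.

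Markers of other cells moved on the same arrays. All 12 tested enterocyte markers were lower in adults, with summed signals of 9.98 to 10.7 times the 75th percentile in adults and 344 to 360 times at P10, and 1 of them was well above background on no adult array. Hepatocyte markers went both ways, 5 lower, 4 higher and 2 not passing of 11 tested, with summed signals of 14.2 to 18.6 in adults and 16.2 to 17.4 at P10. Fga, a fibrinogen chain gene, stood at -7.18 like Afp, while Fgg, another chain of the same protein, rose by 4.33. Ahsg and Tat did not pass the filter on dim probes. Acinar markers gave 7 lower, 0 higher and 2 not passing of 9, or 4 lower and 1 higher with quantile normalization, and 9 lower at an unadjusted p under 0.05. Mesenchyme markers gave 3 lower and 1 higher of 5, duct markers 2 lower and 1 higher of 4, erythroid markers 2 lower and 1 higher of 5 (1 and 2 with quantile normalization), and endothelial markers 0 and 0 of 5, also at an unadjusted p under 0.05, with 1 higher under quantile normalization. Leukocyte markers were higher in 8 of 8 tested. Of these, 2 were well above background on no P10 array and entered the test through adults alone. Mature beta cell markers were higher in 5 of 8 with 1 lower, and alpha cell markers in 4 of 6 with 2 lower. Beside these marker counts, 28.7% of all tested protein-coding genes were lower and 23.7% higher. The labelled tissue carried its defining hormones at both stages, with scaled levels of 6.39 ± 0.28 in adults and 7.32 ± 0.12 at P10 for Ins1 and of 6.46 ± 0.34 in adults and 7.26 ± 0.054 at P10 for Gcg (SD, n = 2 each). Both were lower in adults by limma (adjusted p = 0.0248 and 0.0436), but stood at 0.18 and 0.32 with quantile normalization and did not pass there. The part of these cells in the falls of Afp, Hmga1 and Gpc3, or in the lower call of Igf2bp1, was not tested.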

How the data were processed

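RNA of 3 adult and 3 P10 islet samples had been labelled with Cy3 and hybridised to 1-colour Agilent arrays, per the labels. The deposited files hold the intensity of each spot. Per the submitters' processing notes the scans were read by Agilent Feature Extraction 11.0.1.1, which subtracted background and removed spatial trends within an array, with no scaling across arrays, per the file headers. The authors also deposited normalized log2 values for 16038 probes, with the method not given in the sources used here. Of these, 98.8% lay within 0.05 of quantile-normalized log2 signals. They list 5 of the 7 genes and were used as an alternative, and 0 of their columns were left unmatched.

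Accessions named 14294 probes through the RefSeq gene table of GRCr8. The arrays were designed on an older build, so no gene coordinates are given, and sequences with their GRCr8 positions come from RefSeq tables. Outlier spots were left out, log2 signals of a probe's spots averaged, and each array's 75th percentile subtracted. A probe counted as well above background if at least 0.5 of its spots did, and was tested if so on all 3 arrays of a stage, which left 18362 probes. The adult minus P10 change came from limma 3.58.1 in R 4.3.3 (lmFit, then eBayes) over 2 replicates per stage, with Benjamini-Hochberg adjustment over all tested probes and a threshold of 0.05. The fit was tested on simulated data. A gene was read at its brightest probe. Where a stage had no detected array, any of its signals under the lowest detected signal of the array were raised to it before the fold was taken. Normexp (offset 50) used median spot signals in place of the planned mean spot signals. Alternatives were all 6 arrays, quantile and median scaling, normexp, the authors' values, filters on dim probes, scan, replicate block, an intensity trend, the mean of a gene's probes, and leaving out each replicate.

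Named were all members, from each related list up to 3 rises and 3 falls that passed, a few fixed genes (Trim71, Igf2, H19, Alb), and the 3 genes nearest to Gpc3 (the rule also named Igf2bp1, Igf2bp2, Igf2bp3 and Hmga2, which were not measured at both stages). Plagl1, Afm, Gc and the glypicans follow from the list of paralogs. Drosha, Tut4, Fga, Fgg, Ins1 and Gcg were added after values were seen, as were gene order and promoter motifs. Members, lists and the averaging of arrays were chosen with earlier results of these data known.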

Additional observations from a re-analysis of the deposited data

How the results depend on the processing

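Over 16 other settings the 6 tested genes gave 94 values, of which 82 kept their direction and side of the threshold, 4 lost the call, 7 gained it and 1 changed sign. The sign change was Plag1 with median scaling, at 0.13. With normexp 2 genes of the group were lower, Afp and Gpc3, against 4 as reported. Those 4 count Igf2bp1, which was well above background at P10 alone. The count higher in adults was 1, Lin28a, with all 6 arrays as separate samples, quantile normalization, median scaling, the authors' normalized values, the intensity trend and the replicate block, and 0 to 1 when a replicate was left out, against 0 as reported. Replicate numbers did not pair the arrays: same-numbered deviations correlated at -0.21, 0.08 and -0.24, and with the replicate block 4 genes were lower and 1 higher. Igf2bp1 has no value from the authors' table or from probes detected on all 6 arrays. Across all probes 3909 were higher and 5698 lower as reported, 1571 and 2352 without P10 replicate 1, 1576 and 2542 without P10 replicate 2, 2126 and 2722 with normexp, 3701 and 8599 with no detection filter, and 5585 and 9057 with scan as a block (5481 and 8964 in scan 1 alone). With quantile normalization they were 5219 and 5278, and with median scaling 5088 and 4640, where more probes were higher than lower. Without Adult replicate 2 the counts were 5435 and 8932. The median change of all probes was -0.23 as reported, -0.02 with quantile normalization, 0.07 with median scaling and -0.39 with normexp. The cause of these shifts was not tested. Low signal over background limits Igf2bp1, Hmga1 and Hmga2.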
